A study of Mus musculus with 2 samples.

Results

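Histone and DNA modifying enzyme genes code for the proteins that place methyl and acetyl groups on histones, methylate DNA, or take these marks off again. Here they are the 69 genes, of 19031 genes listed for both samples, whose symbols begin with Dnmt, Tet, Ezh, Suv39h, Nsd, Kmt5, Prmt, Kdm, Kat, Hdac or Sirt followed by a number or letter of that family. They were measured by BD Rhapsody single-cell RNA sequencing in ILC3s, the innate lymphocytes of type 3 that guard the gut lining and carry no antigen receptor. Male mice of strain C57BL/6 aged 18 months gave the cells, which were sorted from the lamina propria of the small intestine and form 1 group of 2 replicates. The series' title names Cxxc finger protein 1 and aging, but the labels of the samples used here give no genotype, treatment or young group, and do not say whether the replicates were separate animals. Every comparison below is therefore between cells of the same 2 samples. Its p-value measures only how evenly ratios held over sums of cells from 2 libraries, a spread that may be technical.

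A histone mark on a given residue is set by an acetyltransferase or methyltransferase, removed by a deacetylase or demethylase, and read by other chromatin proteins. The trimethyl mark on histone H3 lysine 27 is set by Polycomb repressive complex 2 through Ezh1 or Ezh2 and removed by Kdm6b. DNA methylation is copied after replication by Dnmt1, set anew by Dnmt3a and Dnmt3b, and oxidised by the TET enzymes.

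Replicate 1 gave 3337 kept cells and 6939790 UMIs, and replicate 2 gave 3840 cells and 6810214 UMIs. A UMI (unique molecular identifier) marks 1 captured RNA molecule. Median depth was 1880 and 1674 UMIs per cell, and the libraries shared 10 cell barcodes among these samples' cells. The labelled cell type was checked against its markers. Markers of ILC3s were detected in every cell group of both replicates, but 34.4% and 29.1% of the cells held at least 1 UMI of Cd3d, Cd3e or Cd3g, subunits of the T cell receptor complex. These cells are called T cells here, and 235 of 1149 and 414 of 1117 of them held exactly 1 such UMI. The other cells, called CD3-zero, were parted into those with a UMI of Ncr1, a natural cytotoxicity receptor gene (608 and 438 cells), those with a UMI of Ccr6 or Cd4 and none of Ncr1 (128 and 79 cells) and the rest (1452 and 2206 cells). A cell at 0 UMIs of a marker may still express it: 162 of 2188 and 264 of 2723 CD3-zero cells held a UMI of Trac, the constant region of the T cell receptor alpha chain.

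The enzyme genes gave 28515 and 29156 UMIs, or 0.411% and 0.428% of all UMIs in replicates 1 and 2. Of the 69 genes, 68 had at least 1 UMI. Dnmt3aos, an antisense RNA of Dnmt3a, had none, Prmt8 had 1 UMI and Dnmt3l had 9 UMIs, all of them in replicate 1. UMIs count molecules and were not divided by transcript length, so levels are given as CPM, UMIs scaled to a common total per sample or cell group. How well each gene was captured was not measured.

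Kdm6b, the demethylase of H3 lysine 27, was the most abundant enzyme gene, with 1354 and 1322 CPM in replicates 1 and 2. It held 33.0% and 30.9% of all UMIs of these genes. Nsd3, a methyltransferase of H3 lysine 36, came next with 295 and 403 CPM. The replicates did not overlap between these 2 genes. The following genes lay close together and changed order between replicates: Kdm2b (122 and 287 CPM), Kdm7a (167 and 193), Nsd1 (153 and 102), Kat6a (133 and 153), Kdm5a (124 and 116), Kdm2a (107 and 122) and Hdac1 (106 and 130).

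Within families the levels were uneven. Among the DNA methyltransferases, Dnmt3a lay at 32.9 and 28.5 CPM and Dnmt1 at 26.9 and 14.8. Among the TET dioxygenases, Tet2 (69.7 and 84.9) and Tet3 (61.0 and 78.7) were well above Tet1 (2.02 and 0.734, from 14 and 5 UMIs). Ezh2 (30.1 and 40.7) and Ezh1 (36.7 and 32.3), the alternative catalytic subunits of Polycomb repressive complex 2, overlapped. Suv39h1, a methyltransferase of H3 lysine 9, stayed at 5.0 and 5.6 CPM.

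Among the deacetylases, Hdac1 led the class, and Hdac7 (64.8 and 34.7 CPM) and Hdac4 (44.7 and 27.2) were above Hdac2 (26.1 and 21.4) and Hdac3 (22.2 and 21.3). Prmt1, the main enzyme of asymmetric arginine dimethylation, lay at 89.5 and 90.01, and Prmt5, which makes the symmetric mark, at 21.9 and 21.7. Kmt5a, which sets the monomethyl mark on H4 lysine 20, lay at 56.1 and 69.0. The deacetylase Sirt1 lay at 45.5 and 51.7, and the acetyltransferase Kat2b at 56.3 and 33.0.

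Among the genes with over 200 UMIs in all, the replicates differed most in Kdm2b, a CXXC-domain demethylase of H3 lysine 36. It lay at 122 CPM in replicate 1 and 287 in replicate 2, a log2 ratio of 1.24, and the gap was present in each cell group (109 to 126 against 214 to 297). Of these genes, Prmt3 (20.03 and 9.99) and Hdac7 fell the other way, with log2 ratios of -1.004 and -0.90. With 1 library on each side these gaps have no test.

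**Figure D1:**
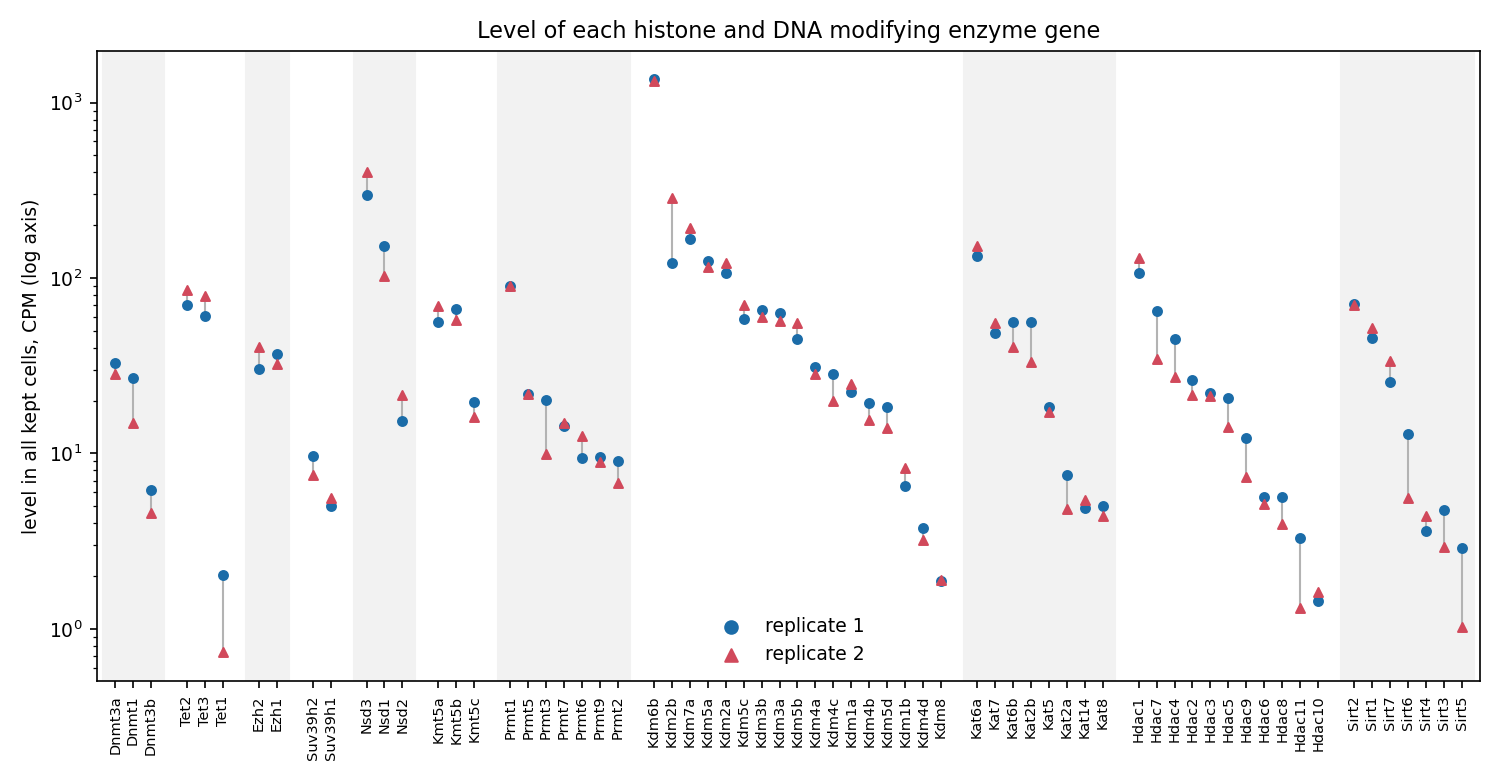
Level of each enzyme gene with a UMI in both replicates, in CPM over all kept cells (log axis), grouped by family on shaded and plain bands and ordered by level within a family. Circles are replicate 1 and triangles replicate 2; Kdm6b stands above all others at 1354 and 1322, and Kdm2b shows a wide gap, from 122 to 287.

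T cells were set against the mean of the 3 CD3-zero groups. Of the 69 enzyme genes, 60 were abundant enough to test, and 2 of them were lower in T cells and none higher at an adjusted p below 0.05. Over all genes tested, 15.2% passed in either direction and 6.43% were lower, so the enzyme genes' share of calls, 3.33%, was below that of all genes. Their median log2 ratio was 0.07, beside 0.05 over all genes. Both lower genes belong to families that remove histone marks. Hdac9 (chr12:34047580-34917095, minus strand) codes for a class IIa deacetylase. Kdm4a (chr4:118136957-118180043, minus strand) codes for a demethylase of H3 lysines 9 and 36. Positions here and below are those of GENCODE M21 on GRCm38.

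Hdac9 gave 15 and 0 UMIs in T cells of replicates 1 and 2, or 5.7 and 0 CPM. A count of 0 at this depth allows up to 1.42 CPM (3 counts, counting error only). The CD3-zero cells gave 70 and 50 UMIs, with 20.2 and 21.8 CPM in the Ncr1 group, 25.2 and 19.5 in the Ccr6 or Cd4 group (6 and 3 UMIs) and 13.5 and 7.6 in the rest. T cells were thus the lowest group in each replicate, and no T cell value overlapped a CD3-zero value. The log2 ratio was -2.40 ± 0.51 (SE), with an adjusted p of 0.0014 in edgeR's quasi-likelihood test. Computed in 1 library alone, it was -1.48 in replicate 1 and -3.77 in replicate 2, where T cells had no UMI. Here and below, values from 1 library alone were scaled without the filter on low counts, so they are not on the scale of the fitted ratio.

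Kdm4a lay at 20.6 and 15.6 CPM in T cells, 35.9 and 18.4 in the Ncr1 group, 92.5 and 58.5 in the Ccr6 or Cd4 group and 33.9 and 37.0 in the rest. T cells were the lowest group and the Ccr6 or Cd4 group the highest in both replicates, although the Ncr1 group of replicate 2 lay below the T cells of replicate 1. The log2 ratio of T to CD3-zero cells was -1.18 ± 0.23 (SE; edgeR adjusted p = 0.0005). Without the replicate block in the fit neither gene was called (edgeR adjusted p = 0.26 for Hdac9 and 0.13 for Kdm4a), at nearly the same ratios (-2.45 and -1.16).

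**Figure D2:**
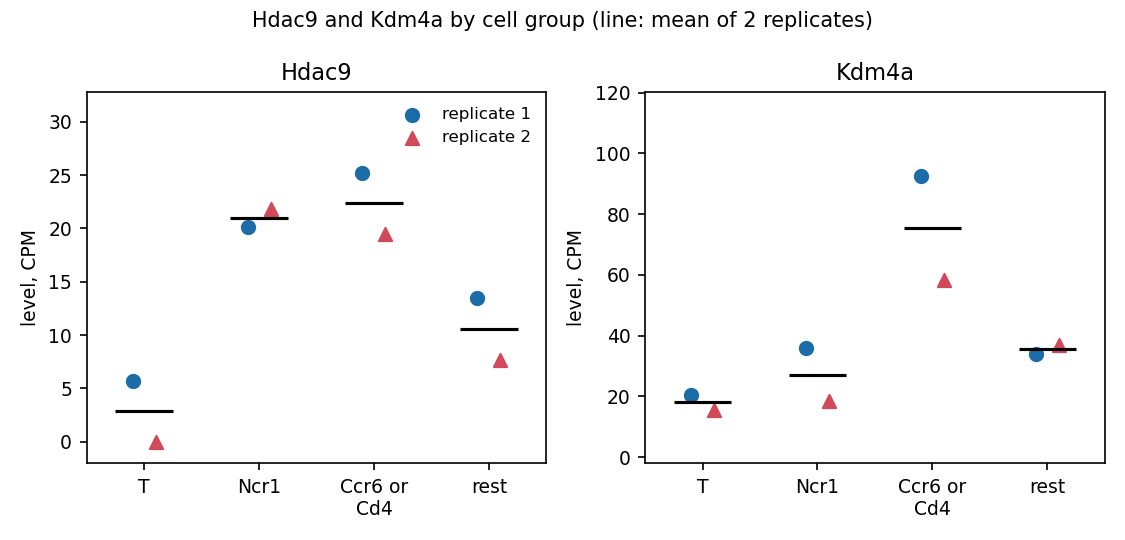
Hdac9 and Kdm4a in CPM in the 4 cell groups, with circles for replicate 1, triangles for replicate 2 and a line at their mean. T cells are the lowest group for both genes in both replicates, and Kdm4a is highest in the Ccr6 or Cd4 group.

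The other 58 genes did not pass the test. Kdm6b lay at 1280 and 1190 CPM in T cells against 1302 to 1644 in the CD3-zero groups, a log2 ratio of -0.14 ± 0.08 (SE; edgeR adjusted p = 0.26). The values for Ezh2 (-0.44 ± 0.19), Tet2 (0.31 ± 0.14), Sirt1 (0.43 ± 0.19) and Kdm5a (0.26 ± 0.12) had edgeR adjusted p-values of 0.14 to 0.16. The log2 ratios of Dnmt1, Dnmt3a, Tet3, Ezh1, Hdac1, Hdac2, Hdac3, Hdac4, Hdac7, Kat2b, Kat6a, Kdm2b, Kdm7a, Prmt1, Prmt5, Suv39h1, Kmt5a, Nsd1 and Nsd3 ran from -0.42 (Suv39h1) to 0.40 (Ezh1).

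The 8 ILC3 markers summed to 5098 and 6373 CPM in T cells and to 7271 to 10421 CPM in the CD3-zero groups. Of the T cell markers outside the Cd3 genes, Trac, Trbc2 and Cd8a were highest in T cells of both replicates. Trbc1 was not: it lay at 361 and 319 CPM there, below the Ncr1 group (530 and 469) and the rest (458 and 451). Lef1 was highest in T cells of replicate 1 only. Markers of other cell types moved with these groups too. The summed level of 5 stromal genes (Col1a1, Col1a2, Col3a1, Dcn and Pdgfra) was 3158 to 4107 CPM in 3 groups of replicate 1 and 488 in its Ccr6 or Cd4 group, but 26 to 107 in replicate 2. The 5 B and plasma cell genes summed to 39 to 5989 CPM over the groups. Leaving out cells with 3 or more UMIs of such genes gave log2 ratios of -2.36 for Hdac9 and -1.22 for Kdm4a, both past the threshold.

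The Ncr1 group was set against the Ccr6 or Cd4 group, which are parted by marker genes of the NCR and LTi branches of ILC3s. The LTi markers Nrp1, Il17f and Vegfa were lower in the Ncr1 group of both replicates. The NCR marker Klrb1b lay at 1190 and 1173 CPM in the Ncr1 group against 1106 and 1033 in the other. Tbx21 lay at 111 and 97.6 against 25.2 and 90.9, and Klrd1 was also higher in the Ncr1 group. Trac lay at 46.3 and 28.7 against 37.8 and 208, so the Ccr6 or Cd4 group may hold T cells without a Cd3 UMI. Kdm4a was the 1 enzyme gene of 60 tested that passed, beside 4.63% of all genes in either direction, 2.35% higher and 2.28% lower. Its values, given above, rest on 48 and 16 UMIs in the Ncr1 group and 22 and 9 in the Ccr6 or Cd4 group. The groups did not overlap, and the log2 ratio was -1.38 ± 0.38 (SE; edgeR adjusted p = 0.037). With every cell thinned to 1000 UMIs the log2 ratio was -0.80 and the call was lost (edgeR adjusted p = 0.53), as it was without the replicate block (edgeR adjusted p = 0.30).

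Hdac1 lay at 122 and 150 CPM in the Ncr1 group against 88.3 and 52.0 in the Ccr6 or Cd4 group, with no overlap. Its log2 ratio of 0.93 ± 0.28 (SE) stood just outside the threshold (edgeR adjusted p = 0.055). It passed without the cells holding UMIs of other cell types (0.99) and without the filter on low counts (0.98). It had edgeR adjusted p-values of 0.14 with the stricter cell filter, 0.27 with thinned cells and 0.38 without the replicate block, and 0.13 in DESeq2. Computed in replicates 1 and 2 alone, it was 0.57 and 1.67. Hdac7 went the other way, at 54.6 and 32.2 against 105 and 58.5 (log2 ratio -0.85 ± 0.30, edgeR adjusted p = 0.13). The median SE of the enzyme genes was 0.49 on the log2 scale in this comparison, beside 0.24 for T against CD3-zero cells. Kdm6b had a log2 ratio of -0.14 ± 0.10 (SE). The remaining genes listed by name for T cells ran from -0.54 (Dnmt3a) to 0.94 (Kat2b), with edgeR adjusted p-values of 0.31 and above.

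The rest were set against the mean of the Ncr1 and the Ccr6 or Cd4 groups. No enzyme gene of 60 passed in edgeR, where 1.91% of all genes did (1.74% higher and 0.166% lower); 5 had an unadjusted p below 0.05, and DESeq2 gave 0 calls and 1 unadjusted p below 0.05. Kat2b, an acetyltransferase of the SAGA and ATAC complexes, came closest. It lay at 66.0 and 39.0 CPM in the rest, 50.1 and 29.9 in the Ncr1 group and 29.4 and 12.99 in the Ccr6 or Cd4 group, a log2 ratio of 0.89 ± 0.24 (SE; edgeR adjusted p = 0.061). The rest lay highest in each replicate, but the rest of replicate 2 was below the Ncr1 group of replicate 1. The other genes listed by name for T cells ran from -0.35 (Dnmt1) to 0.47 (Sirt1), with edgeR adjusted p-values of 0.39 and above.

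**Figure D3:**
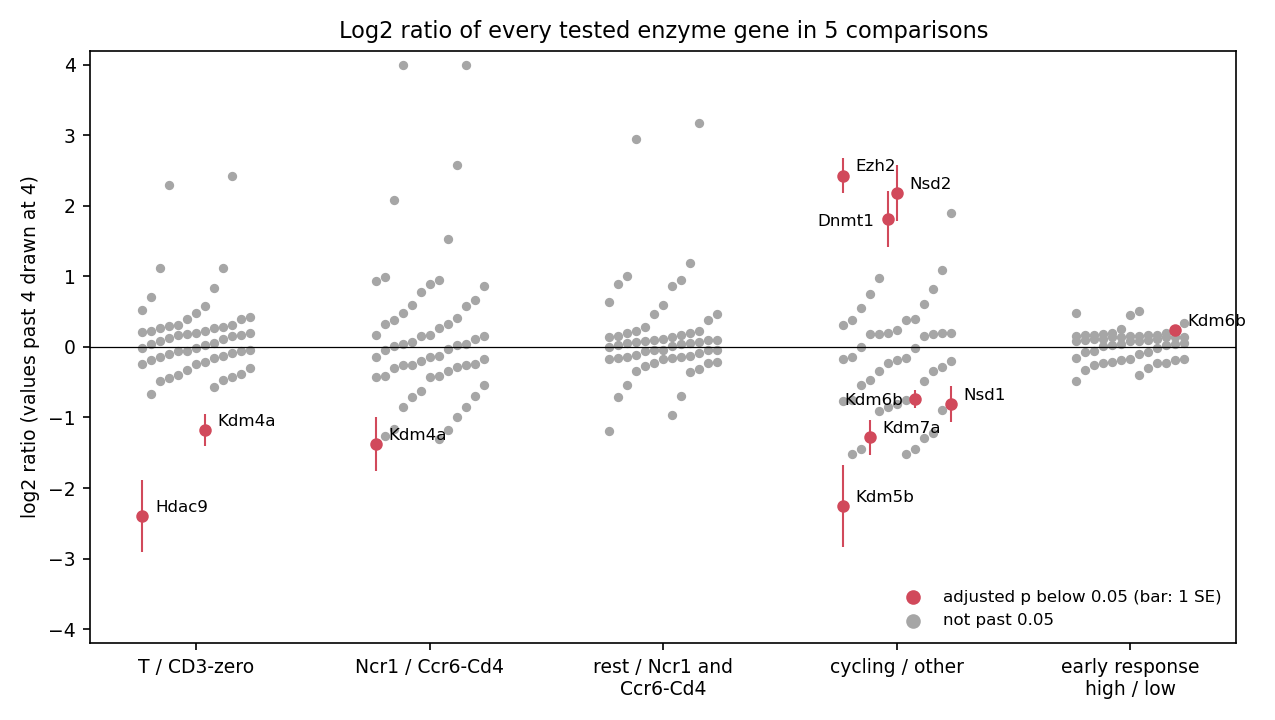
Log2 ratio of every tested enzyme gene in the 5 comparisons (60, 60, 60, 53 and 54 genes). Red points with bars of 1 SE passed an adjusted p of 0.05 in edgeR and grey points did not; the cycling comparison holds 7 red points, 3 above and 4 below 0.

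Dividing cells were rare: 46 and 54 cells, or 1.38% and 1.41%, held at least 2 UMIs of 10 cell cycle genes such as Mki67 and Top2a. In 26 and 15 of them the sum was exactly 2, and 87 and 70 cells just outside the threshold held 1. Cycling cells were set against all others, with T and CD3-zero cells adjusted for. The spread in this test takes in the difference of the ratio between T and CD3-zero cells as well as between the 2 libraries. Of 53 enzyme genes tested, 3 were higher and 4 lower in cycling cells. Over all genes tested, 9.77% passed in either direction, 3.89% higher and 5.88% lower, beside 13.2% of the enzyme genes. The higher genes were Ezh2, Nsd2 and Dnmt1, and the lower ones Kdm6b, Kdm7a, Kdm5b and Nsd1. All of the first 3 place methyl groups. Of the last 4, Kdm6b, Kdm7a and Kdm5b remove them and Nsd1 places them.

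Ezh2 (chr6:47530139-47595341, minus strand) rose most. It lay at 21.9 and 30.3 CPM in other T and other CD3-zero cells of replicate 1 and at 28.4 and 37.0 in those of replicate 2. In cycling cells it lay at 96.8 (T) and 156 (CD3-zero) in replicate 1 and 245 and 266 in replicate 2, so that every cycling value was above every other value. The log2 ratio was 2.43 ± 0.24 (SE), or 5.38-fold (edgeR adjusted p = 5.3e-08). Its paralog Ezh1, by contrast, had a log2 ratio of -0.89 ± 0.48 that did not pass (edgeR adjusted p = 0.28); the difference between the 2 genes was not tested.

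Dnmt1 (chr9:20907209-20959888, minus strand), the maintenance DNA methyltransferase, lay at 32.3 and 20.9 CPM in other T and CD3-zero cells of replicate 1 and at 123 and 41.7 in the cycling ones. In replicate 2 the values were 11.7 and 13.8 in other cells and 28.8 and 96.9 in cycling cells, of which the T cell value rests on 2 UMIs. Cycling cells were higher in all 4 pairs, although the lowest cycling value lay below the highest of the others. The log2 ratio was 1.81 ± 0.40 (SE; edgeR adjusted p = 0.0028), and 1.18 and 1.55 computed in replicates 1 and 2 alone. Dnmt3a, the de novo enzyme, had a log2 ratio of -1.52 ± 0.57 (edgeR adjusted p = 0.096).

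Nsd2 (chr5:33820725-33897975, plus strand), which sets the dimethyl mark on H3 lysine 36, lay at 12.4 and 14.5 CPM in other T and CD3-zero cells of replicate 1 and at 16.1 and 20.3 in replicate 2. Cycling CD3-zero cells gave 136 and 96.9 in the 2 replicates. Cycling T cells gave 115 in replicate 2 but 8.8 (1 UMI) in replicate 1, the one pair that did not rise. The log2 ratio was 2.18 ± 0.40 (SE; edgeR adjusted p = 0.00037), and 1.11 and 2.05 computed in replicates 1 and 2 alone. Nsd2 overlaps Nelfa on the other strand in GENCODE M21, and whether the counting used strand is not given in the sources used here, so reads of the 2 genes may not be told apart.

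Kdm6b (chr11:69398508-69413675, minus strand), which has the most UMIs of these genes, fell in all 4 pairs: from 1294 to 968 CPM in T cells and from 1410 to 938 in CD3-zero cells of replicate 1, and from 1202 to 836 and from 1393 to 936 in replicate 2. No cycling value overlapped a value of the other cells. The log2 ratio was -0.74 ± 0.12 (SE; edgeR adjusted p = 0.00012). Its antisense partner Kdm6bos gave 1 UMI in replicate 2 and was not listed for replicate 1.

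Kdm7a (chr6:39136623-39206789, minus strand), a demethylase of H3 lysines 9 and 27, lay at 157 and 178 CPM in other T and CD3-zero cells of replicate 1 and at 61.6 and 83.4 in the cycling ones. In replicate 2 it went from 210 to 187 in T cells and from 189 to 56.5 in CD3-zero cells. It was lower in all 4 pairs, least so in T cells of replicate 2, and the log2 ratio was -1.28 ± 0.25 (SE; edgeR adjusted p = 0.00073).

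Kdm5b (chr1:134560171-134635285, plus strand), a demethylase of H3 lysine 4, rests on few molecules: 3 and 2 UMIs in cycling cells of replicates 1 and 2 against 307 and 377 in other cells. Its level was 14.3 and 10.3 CPM in cycling cells and 45.6 and 57.0 in the others, with a log2 ratio of -2.25 ± 0.58 (SE; edgeR adjusted p = 0.011). Thinned to 1000 UMIs per cell, it gave -0.99 and lost the call (edgeR adjusted p = 0.51), which it also lost in DESeq2. Computed in replicates 1 and 2 alone, with the other scaling of such values, it was -3.02 and -3.97.

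Nsd1 (chr13:55209782-55318325, plus strand), like Nsd2 a methyltransferase of H3 lysine 36, fell by 0.81 on the log2 scale (SE 0.26; edgeR adjusted p = 0.042), from 161 to 62.6 and from 102 to 64.6 CPM in CD3-zero cells of the 2 replicates and from 106 to 43.2 in T cells of replicate 2, but stood at 141 and 150 in other and cycling T cells of replicate 1. Computed in replicates 1 and 2 alone, the log2 ratio was -0.88 and -1.38. Its call was lost in 7 of 11 alternative settings, among them another scaling of the libraries, where the log2 ratio was -0.71 (edgeR adjusted p = 0.092). Of the 7 calls it was the one lost most often. Ezh2, Kdm7a, Nsd1, Kdm4a and Hdac9 also overlap annotated RNAs on the other strand, so the same limit as for Nsd2 holds for them. On their own strand, Hdac9 overlaps Gm18025, Gm47357 and 4921508M14Rik, and Dnmt1 overlaps Mir7081. Strand alone would not tell these apart.

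**Figure D4:**
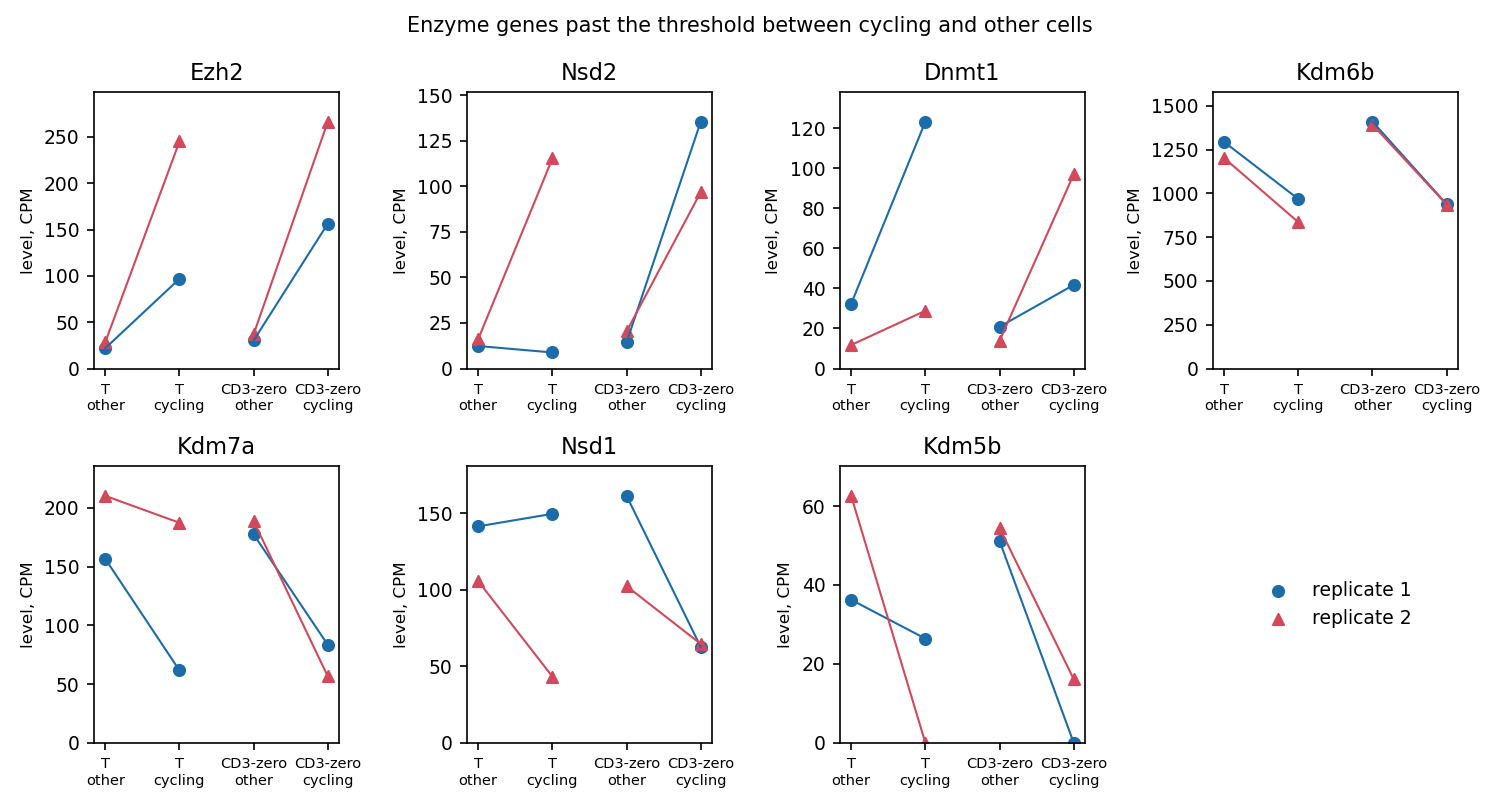
The 7 enzyme genes past the threshold between cycling and other cells, in CPM for T and CD3-zero cells; lines join other and cycling cells of 1 replicate (circles, replicate 1; triangles, replicate 2). Ezh2, Kdm6b and Kdm5b separate fully, Kdm5b on few UMIs in cycling cells. Nsd2 in T cells of replicate 1 and Nsd1 in T cells of replicate 1 go against the other pairs.

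Without the replicate block Ezh2 and Kdm6b kept their calls, while Dnmt1, Nsd2, Kdm7a, Kdm5b and Nsd1 did not, with edgeR adjusted p-values of 0.051 (Nsd2) to 0.26 (Nsd1). Several genes did not pass in the cycling comparison. Kdm2b had a log2 ratio of -0.54 ± 0.19, Sirt1 of -1.22 ± 0.43 and Kmt5a of 0.75 ± 0.27, with edgeR adjusted p-values of 0.066, 0.071 and 0.085. The log2 ratios of Hdac1, Hdac2 and Hdac3 lay between 0.39 and 0.55 with SE of 0.20 to 0.48. Tet2, Tet3, Hdac4, Hdac7, Kat2b, Kat6a, Kdm5a, Prmt1, Prmt5, Suv39h1 and Nsd3 ran from -0.75 to 0.38, and none had an adjusted p below 0.18. Whether the response differed between T and CD3-zero cells was tested by an interaction term: no enzyme gene passed (smallest edgeR adjusted p = 0.925), and 6 genes did in the whole table.

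Depth and markers of other cell types moved with the cycling groups, and their part in these ratios was not tested beyond the values given here. Cycling cells had median depths of 2912 to 3747 UMIs against 1618 to 1975 in the others. The median of all genes stood at -0.15 on the log2 scale, so the lower genes are to be read against that shift, and 39.8% of all calls were higher. With every cell thinned to 1000 UMIs the median was -0.40 and 17.4% of all calls were higher; there Ezh2, Nsd2 and Dnmt1 were called at 2.12, 2.06 and 1.94, and Kdm6b and Kdm7a at -0.89 and -1.57. With RLE scaling the median was -0.03 and 53.0% of all calls were higher. Kdm6b had a log2 ratio of -0.62 there and Ezh2 of 2.55, both past the threshold. Of the other cell types, 5 myeloid genes summed to 1007 CPM in cycling cells of replicate 1 against 99.4 in its other cells and to 5.2 against 32.2 in replicate 2, and 5 B and plasma cell genes to 10546 against 2217 in replicate 2 and 339 against 4840 in replicate 1. Stromal genes summed to 248 against 3614 in replicate 1 and to 62.1 against 84.8 in replicate 2. The NCR markers (597 against 1025 and 595 against 1008) and the ILC3 markers (5335 against 6626 and 5847 against 7930), Il7r among them (1188 against 2067 and 1242 against 2476), were lower in cycling cells of both replicates. Without the cells holding UMIs of genes of other cell types, all 7 genes were still called, with log2 ratios of 2.58 for Ezh2, 2.42 for Nsd2, 1.72 for Dnmt1 and -0.82 for Kdm6b.

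The promoters of the genes that moved with division were read to show what they hold of the E2F motif, the site of the E2F factors that drive genes of DNA replication. Windows ran from 250 bases before to 50 bases after each RefSeq gene start (GRCm38.p6), and 57 of the 69 genes had one. Searched on both strands were TTTCCCGC, TTTGGCGC, TTTGCCGC and TTTCGCGC, which differ in the middle letters only; a match can overlap one on the other strand, and each window was counted once. At least 1 of them stood in 2.26% of 32851 windows, in 5.08% of the 7053 tested genes with a window, in 16.5% of the 279 genes higher in cycling cells with a window and in 3.11% of the 386 lower. Of the enzyme genes, 6 of 57 had one: Dnmt1, Ezh2, Kat2a, Kmt5c, Sirt4 and Suv39h1. Kmt5c and Suv39h1 were tested between cycling and other cells and did not pass. Kat2a and Sirt4 were not abundant enough to test there. Windows were found for 2 of the 3 higher genes, Ezh2 and Dnmt1, and for 2 of the 4 lower genes, Kdm5b and Kdm7a. The stretches below, from these 4 windows and on each gene's own strand, show the matched letters in capitals.
Ezh2, chr6:47595011-47595110, minus strand, 80 bases before to 20 after the start: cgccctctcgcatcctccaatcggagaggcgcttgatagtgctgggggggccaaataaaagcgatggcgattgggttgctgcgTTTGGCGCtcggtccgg
Dnmt1, chr9:20952774-20952873, minus strand, upstream part: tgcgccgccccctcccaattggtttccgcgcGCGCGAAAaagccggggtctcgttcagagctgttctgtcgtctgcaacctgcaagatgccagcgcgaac
Dnmt1, chr9:20952575-20952600, minus strand, after the start: cggggcagcgTTTGGCGCgggctgtg
Kdm5b, chr1:134560098-134560197, plus strand, 80 bases before to 20 after the start: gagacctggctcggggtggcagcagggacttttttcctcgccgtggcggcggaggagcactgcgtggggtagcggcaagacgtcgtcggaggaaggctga
Kdm7a, chr6:39206754-39206853, minus strand, 80 bases before to 20 after the start: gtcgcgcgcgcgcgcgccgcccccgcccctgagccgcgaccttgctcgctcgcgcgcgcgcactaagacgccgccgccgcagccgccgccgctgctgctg
In Ezh2 the match begins at base 4, counting the start as base 1. Dnmt1 holds 1 match on its opposite strand 219 bases before the start and 1 on its own strand after it. The RefSeq starts of Ezh2 and Dnmt1 lie inside the GENCODE spans given above and not at their ends. The whole windows, chr6:47594981-47595280 for Ezh2 and chr9:20952574-20952873 for Dnmt1, lie inside these spans. Neither start is thus the outermost one in GENCODE M21, and each may belong to another transcript. The windows of Kdm5b and Kdm7a hold none of these letters. A match is a description of the sequence and not a measured binding site.

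Within each replicate and cell group, cells were parted at the median share of UMIs from 9 early response genes (Fos, Fosb, Jun, Junb, Egr1, Nr4a1, Ier2, Dusp1 and Atf3), which rise within a short time of stimulation or of tissue handling. The median share was 1.45% and 0.780%, and 547 and 531 cells lay within 10% of the value at which they were parted. Kdm6b was the 1 enzyme gene of 54 tested that passed, and it was higher in the cells rich in early response UMIs; 5.74% of all genes passed in either direction 4.76% higher and 0.983% lower. In replicate 1 it rose from 1217 to 1338 CPM in T cells, from 1257 to 1454 in the Ncr1 group, from 1443 to 1876 in the Ccr6 or Cd4 group and from 1355 to 1446 in the rest. In replicate 2 it rose from 1071 to 1303, from 1213 to 1391, from 1394 to 1494 and from 1245 to 1555. The high cells were above the low cells in all 4 groups of both replicates. The change was small, with a log2 ratio of 0.24 ± 0.06 (SE), or 1.18-fold (edgeR adjusted p = 0.010; 0.25 without the replicate block).

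**Figure D5:**
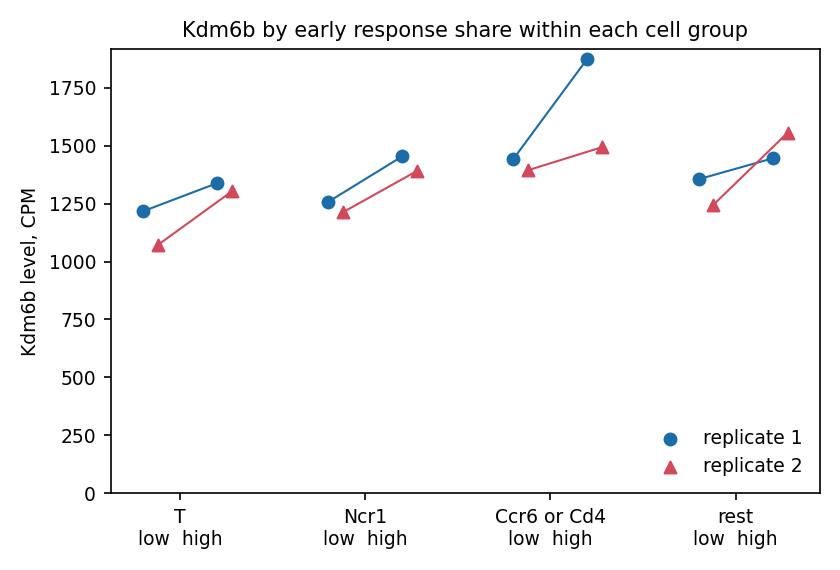
Kdm6b in CPM in the cells low and high in early response UMIs, for 4 cell groups, with lines joining low and high cells of 1 replicate (circles, replicate 1; triangles, replicate 2). Every line rises, from 1071 to 1303 at the lowest group and from 1443 to 1876 at the highest.

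The other 53 tested genes did not pass in this comparison. Kdm2b had a log2 ratio of -0.21 ± 0.08 and Kat6a of 0.17 ± 0.08, with edgeR adjusted p-values of 0.12 and 0.31. The other genes listed by name for T cells ran from -0.29 (Dnmt1) to 0.19 (Suv39h1), with edgeR adjusted p-values of 0.34 and above. Of the 54 genes, 53 had ratios within 0.5 of 0 on the log2 scale. Stromal genes summed to 6412 CPM in the high cells of replicate 1 against 569 in its low cells, and to 109 against 59.5 in replicate 2. B and plasma cell genes summed to 1630 against 7826 and to 1986 against 2919. Without cells holding 3 or more UMIs of such genes the log2 ratio of Kdm6b was 0.28 and was called (edgeR adjusted p = 0.00018). The spread in this test comes from 16 sums of cells of 2 libraries, so it measures evenness across cell groups rather than across samples.

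Beside the enzymes stand 87 genes of their complexes and pathways, such as the other subunits of Polycomb complexes, the deacetylase complexes and further acetyltransferases and demethylases. In T against CD3-zero cells, 85 were tested, 6 were higher and 2 lower (9.41%, beside 15.2% of all genes). Without the replicate block 0 of these 8 calls were left, and DESeq2 called 3. The largest rises were those of Sap30, a subunit of the Sin3 deacetylase complex (log2 ratio 1.58 ± 0.49), Pcgf6 of Polycomb repressive complex 1 (1.38 ± 0.42), the coactivator Ncoa1 (0.59 ± 0.17), and Chd3 (0.57 ± 0.11) and Mta3 (0.53 ± 0.17) of the NuRD complex. The corepressor Rcor1 (-0.45 ± 0.11) fell. Between the Ncr1 and the Ccr6 or Cd4 groups, Mbd2, a reader of methylated DNA, was higher (0.78 ± 0.15) and Hells, a chromatin remodeller needed for DNA methylation, was lower (-2.23 ± 0.60), and neither was called without the replicate block. No partner gene passed in the rest against the other 2 groups or by early response in edgeR, where 5 and 7 had an unadjusted p below 0.05; DESeq2 called 0 and 1.

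Between cycling and other cells, 83 partner genes were tested, 6 were higher and 7 lower (15.7%, beside 9.77% of all genes). DESeq2 called 8, and 3 were called without the replicate block. Uhrf1, which brings Dnmt1 to newly replicated DNA, rose by 4.92 ± 0.47 on the log2 scale (edgeR adjusted p = 2.4e-08). Hells rose by 2.13 ± 0.50, and so did Phf19, a partner of Polycomb repressive complex 2 (2.18 ± 0.70), Phc1 of Polycomb repressive complex 1 (1.86 ± 0.57) and Hat1, which acetylates newly made histone H4 (1.79 ± 0.31). The lower genes included Zbtb33, a reader of methylated DNA (-2.27 ± 0.68), Phf1 (-1.004 ± 0.28), Rcor1 (-0.84 ± 0.23), Epc1 (-0.78 ± 0.24) and Chd3 (-0.69 ± 0.19). Of the core subunits of Polycomb repressive complex 2 beside Ezh2, Rbbp7 rose by 0.66 ± 0.19. Suz12 (0.56 ± 0.22), Rbbp4 (0.27 ± 0.18) and Eed (-0.54 ± 0.44) did not pass.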

How the data were processed

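The authors deposited UMI counts per cell and gene, not normalized; per the file headers these came from BD's WTA Multiplex Rhapsody Analysis Pipeline 1.8, on GRCm38 with GENCODE M19. Per the submitters' processing notes, which give no roles, the tools were Bowtie2 and HISAT2 2.0.5 and the builds mm10 and GRCm38.p6. Each sample was 1 sample tag (6 and 12) of its own library, and every cell of another tag, multiplet or undetermined call stayed out (12366 and 12577 cells). No other doublet caller was run. Kept were cells of 300 genes or more whose mitochondrial UMIs made up no more than 25% (97.4% and 97.1%). A gene missing from 1 table was read as 0. One gene whose symbol fits the patterns is not reported here.

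UMI counts were summed per replicate and cell group and tested with edgeR 4.0.16 (R 4.3.3; glmQLFit, glmQLFTest) with TMM scaling, filterByExpr and the replicate as a block, since all groups of a replicate are cells of 1 library. The genes that define a grouping were left out, and p-values were adjusted by Benjamini-Hochberg over all genes tested at 0.05. Residual degrees of freedom were 3 for the cell groups, 4 for cycling and 10 for early response. Each SE is the size of the log2 ratio divided by the square root of F. Values within 1 replicate use TMM-scaled log2 CPM with a prior count of 2. Their scaling was taken before the filter on low counts and each sum of cells weighed the same, unlike in the fits. Positions came from GENCODE M21. The fits were run on simulated data with a fixed spread and no difference between replicates. That run cannot show how they behave with these 2 libraries. DESeq2 1.42.0, RLE scaling, no filter on low counts, no replicate block, other cell filters, thinned cells, other definitions of the groups and single replicates were the alternatives. Named were up to 10 called enzyme genes in each direction, 24 set genes, up to 5 called partner genes in each direction, and, chosen after their values were seen, those singled out for level, for a gap between replicates or as subunits beside Ezh2. The genes and lists were chosen with earlier results of these data known.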

Additional observations from a re-analysis of the deposited data

How the results depend on the processing

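No result changed sign while called. Without the replicate block the calls fell to 0 enzyme genes for T against CD3-zero cells, 0 for Ncr1 against Ccr6 or Cd4, 2 for cycling (Ezh2 and Kdm6b) and 0 for early response, and the partner genes called fell to 0, 0 and 3 for the first 3 of these; in the whole table the 1468, 446, 184, 874 and 514 calls of the 5 comparisons became 173, 10, 0, 193 and 5. The common dispersion rose from 0.00658 to 0.0998 in the cell group fit. Without the filter on low counts the enzyme genes called were 4, 2 and 1 in the cell group comparisons, and partner genes 23 for cycling and 1 for early response, with 314 genes in all for the rest. With thinned cells they were 0 enzyme genes for Ncr1 against Ccr6 or Cd4, and 4, 1 and 6 partner genes for T cells, the rest and cycling; the whole-table counts fell to 72 for the rest, 489 for cycling and 219 for early response. Without cells holding UMIs of other cell types, 2 enzyme genes (Ncr1 against Ccr6 or Cd4) and 1 partner gene (early response) passed, and the whole-table counts were 85 for the rest and 191 for early response. DESeq2 called 3, 8 and 1 partner genes for T cells, cycling and early response, and 978, 31 and 268 genes in all for T cells, the rest and early response. In DESeq2 38.3%, 80.6% and 62.4% of all calls were higher for Ncr1 against Ccr6 or Cd4, the rest and cycling, beside 50.7%, 91.3% and 39.8% in edgeR. The stricter cell filter left 1 partner gene (Ncr1 against Ccr6 or Cd4), and T cells also by Trac gave 1 (the rest). Ezh2 and Kdm6b kept their cycling calls in 11 of 11 alternatives, and Kdm5b in 8. The cause of these changes was not tested. Among 1155 values of named genes that were not called under an alternative either, 52 changed sign. A single replicate leaves no residual degrees of freedom, so it gave values and no counts of calls. The cycling comparison rests on 46 and 54 cells.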
